A study of Mus musculus with 6 samples.

Results

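The 10 genes described here code for secreted growth factors of the VEGF, angiopoietin, HGF and PDGF families (Vegfa, Vegfb, Vegfc, Vegfd, Pgf, Angpt1, Angpt2, Hgf, Pdgfa and Pdgfc). They were listed by their symbols for this description, with earlier results of these data known. Pdgfb, Pdgfd and Angpt4, of the same families, are not among them. All 10 members are among the 26264 gene symbols counted in each of 6 libraries of mouse brown fat cells. By the titles, the cells were immortalized brown preadipocytes of interscapular brown fat (iBAT), or adipocytes of the same source. The study's methods give wild-type Bl6N mice as the origin. They describe immortalization with the SV40 large T antigen, a viral protein that overrides growth arrest. By these methods, all 6 cultures carry this antigen and stem from cells grown out of the stromal vascular fraction. The titles name no strain and do not say whether all 6 cultures came from the same line. 3 libraries came from cells pretreated with FGF8, a paracrine fibroblast growth factor, at 5.5 nM for 48 h, and 3 from cells labelled untreated. For each treatment, 1 library was made at the end of the pretreatment (day 0), 1 on day 3 and 1 on day 9, where day 0 holds undifferentiated preadipocytes and the later days hold cells given an adipogenic induction mix for 2 days and a maintenance medium after it. The titles name the last time D7, which is taken here as day 9 of the study. The study counts day 9 as 2 days of induction plus 7 days on differentiation medium. D3 in the titles is taken as its day 3, which already includes the 2 days of induction. The growth text of the labels is written for primary white preadipocytes, whereas the titles and the design name immortalized brown cells. With 1 library per condition, no difference between an FGF8 and an untreated library of 1 day has a replicate check.

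VEGF-A acts on blood vessel endothelium through the receptors VEGFR1 (gene Flt1) and VEGFR2 (Kdr), VEGF-B and placental growth factor bind VEGFR1, and VEGF-C and VEGF-D act mainly on lymphatic endothelium through VEGFR3 (Flt4). The angiopoietins bind the endothelial receptor Tie2 (Tek), where angiopoietin 1 activates it and angiopoietin 2 often opposes this. HGF signals through Met, and PDGF-A and PDGF-C signal mainly through Pdgfra, a receptor of adipocyte progenitors. Brown fat is densely supplied with vessels, and its adipocytes are known as a source of VEGF-A.

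Vegfa and Vegfd had the largest FGF8 differences at day 0 in opposite directions, so the DNA just upstream of both is shown. Each window is the 250 bases before the GENCODE gene start in GRCm39, read 5′ to 3′ on the strand of the gene, and lies outside the annotated transcript. In the Vegfa window, chr17:46343310-46343559 (minus strand), capitals mark 2 GC boxes (GGGCGG), 66 to 61 and 56 to 51 bases before the start. In the Vegfd window, chrX:163155990-163156239 (plus strand), capitals mark ACGTG, the core bound by hypoxia-inducible factors (HIF), 35 to 31 bases before the start, and TATAAA on the opposite strand, 220 to 215 bases before it. Another stretch, chr17:46344191-46344257 (written on the minus strand), surrounds TACGTGG, in capitals, 918 to 912 bases before the Vegfa start.
Vegfa promoter: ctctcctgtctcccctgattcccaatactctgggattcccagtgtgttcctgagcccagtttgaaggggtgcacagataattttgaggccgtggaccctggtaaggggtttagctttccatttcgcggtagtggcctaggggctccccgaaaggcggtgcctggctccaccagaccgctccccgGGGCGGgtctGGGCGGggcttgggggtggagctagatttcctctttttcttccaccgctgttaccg
Vegfd promoter: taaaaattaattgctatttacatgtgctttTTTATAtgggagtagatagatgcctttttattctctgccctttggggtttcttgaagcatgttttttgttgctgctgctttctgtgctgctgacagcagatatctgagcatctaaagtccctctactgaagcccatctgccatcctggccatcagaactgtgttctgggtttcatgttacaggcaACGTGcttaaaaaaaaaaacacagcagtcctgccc
Vegfa upstream stretch: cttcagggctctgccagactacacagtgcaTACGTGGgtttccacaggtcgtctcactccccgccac

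The base composition of the 2 promoters differed: 59.6% of the Vegfa window and 41.6% of the Vegfd window was G or C, against a median of 51.2% over the windows of 21757 protein-coding genes, of which 16.1% lay below Vegfd. A GC box on either strand was found in 29.9% of these windows, a HIF core (ACGTG or GCGTG) in 38.4% and TATAAA in 12.5%. The rarer TACGTGG, itself an overlap with the HIF core, was found on either strand in 4.36% of windows of 1500 bases. No CRE (TGACGTCA), AP-1 (TGACTCA or TGAGTCA), ETS (CCGGAAG) or estrogen-related receptor (TCAAGGTCA) letters occurred in the Vegfa or Vegfd windows of 250 bases. These matches describe letters and are not shown to be bound.

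The libraries held between 16403254 and 38551551 counts. The 2 libraries of day 0 stand apart from the later ones in 3 further genes. Xist, the RNA of X inactivation, had 3716 (untreated) and 7473 (FGF8) normalized counts at day 0 and at most 21.1 in the other 4 libraries. Ifi202b had 10511 and 5711 counts at day 0 and at most 1 later, and Gbp2b 4837 and 935 counts and at most 1 later. The Y-linked Ddx3y was present in all 6, at 2507 to 3890 normalized counts. They were picked once their values had been seen. Every comparison of day 0 with a later day is therefore also a comparison of libraries that differ in these genes, and the day and any other difference between these cultures cannot be told apart there. A comparison within a day does not cross this divide, but the 3 genes also differed between the 2 libraries of day 0. In normalized counts, Ifi202b had 15439 untreated and 7311 with FGF8 there, and Gbp2b 7105 and 1197. Whether the 2 cultures of day 0 differed in more than FGF8 was not tested. In bulk RNA, fewer cells of a type and less RNA per cell cannot be told apart either.

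The adipocyte markers (6 genes) summed to 731.5, 222930 and 374718 normalized counts in the untreated libraries of days 0, 3 and 9, and to 521.0, 433719 and 434455 in the FGF8 libraries. At days 3 and 9 most of each sum was Fabp4, with 334151 in the FGF8 library of day 3. The 5 preadipocyte markers summed to 124173, 33592 and 27747 untreated and to 30378, 8960 and 5668 with FGF8. The 5 brown adipocyte markers ran from 395.1 in the untreated library of day 0 to 142735 in the FGF8 library of day 9. Most of the latter was Ucp1 (99587) and Cidea (37734). Dio2 went the other way, from 304.1 to 18.7 between these 2 libraries. Endothelial markers were sparse: Sox17 had 0 counts in all 6 libraries, Cdh5 at most 7 and Pecam1 at most 17, and most of the summed 262.5 to 490.3 normalized counts of the 10 endothelial genes came from Egfl7 and Plvap. Of the 10 macrophage genes, which summed to 61.5 to 156.2 normalized counts, Adgre1, C1qa, C1qb and C1qc had 0 counts in all 6 libraries. The 9 pericyte or smooth muscle genes summed to 1548 to 7780.

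Vegfa, the main angiogenic factor (chr17:46327919-46343309, minus strand), was higher after FGF8 on each day and higher on each later day. The untreated libraries of days 0, 3 and 9 held 978.3, 7347 and 27908 normalized counts, and the FGF8 libraries 4102, 13094 and 44032. No untreated library reached the FGF8 library of the same day, and the lowest and highest of the 6 libraries were 45.0-fold apart. The log2 fold change, taken as the difference of log2(normalized count + 1), was 2.07 at day 0 (95% counting interval 1.95 to 2.19), 0.83 at day 3 (0.79 to 0.88) and 0.66 at day 9 (0.64 to 0.68). The intervals come from the exact binomial ratio of 2 counts and, like the floor of 3 counts, cover counting error only. The fold over the untreated library was thus 4.19, 1.78 and 1.58 in the order of the days, while the difference in normalized counts widened.

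Vegfd, a lymphatic growth factor (chrX:163156240-163185646, plus strand), showed the opposite pattern. It held 4593, 4624 and 2793 normalized counts in the untreated libraries of days 0, 3 and 9, and 175.4, 1250 and 695.9 in those with FGF8. The 3 FGF8 libraries were all below the 3 untreated ones. FGF8 pretreatment went with a 26.2-fold lower level at day 0 (log2 fold change -4.70, interval -4.97 to -4.46), a 3.70-fold lower one at day 3 (-1.89, -1.97 to -1.80) and a 4.01-fold lower one at day 9 (-2.00, -2.11 to -1.90). The 4-fold difference at day 9 was measured 9 days after the pretreatment had ended.

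Vegfc, the closest relative of Vegfd (chr8:54530257-54640131, plus strand), was lower after FGF8 on all 3 days but at a far lower level. Its normalized counts in the order of the days were 271.7, 239.3 and 191.7 untreated and 67.9, 149.5 and 107.3 with FGF8. The FGF8 libraries again lay below all untreated ones. Day 0 was the 1 day past 2-fold, with a log2 fold change of -1.99 (interval -2.47 to -1.55), beside -0.67 (-0.97 to -0.39) on day 3 and -0.83 (-1.15 to -0.53) on day 9.

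Vegfb, which is linked to fatty acid handling and vessel survival (chr19:6958447-6965127, minus strand), did not differ beyond counting error at day 0, with 853.4 and 825.7 normalized counts (log2 fold change -0.05, interval -0.21 to 0.12). At day 3 it had 2295 and 3616, and at day 9 3416 and 5343 normalized counts. The differences after differentiation were alike, 0.66 (interval 0.58 to 0.73) and 0.65 (0.59 to 0.70) on the log2 scale, and below 2-fold. Pgf, the placental member (chr12:85213409-85224564, minus strand), was close to the detection limit. The untreated libraries gave 4, 4 and 14 counts in the order of the days, and the FGF8 libraries 21, 4 and 1. Its mean stayed under 20 normalized counts in each pair, so it was left out of the counts of higher and lower members, and its log2 interval at day 9 ran from -9.01 to -0.90.

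**Figure D1:**
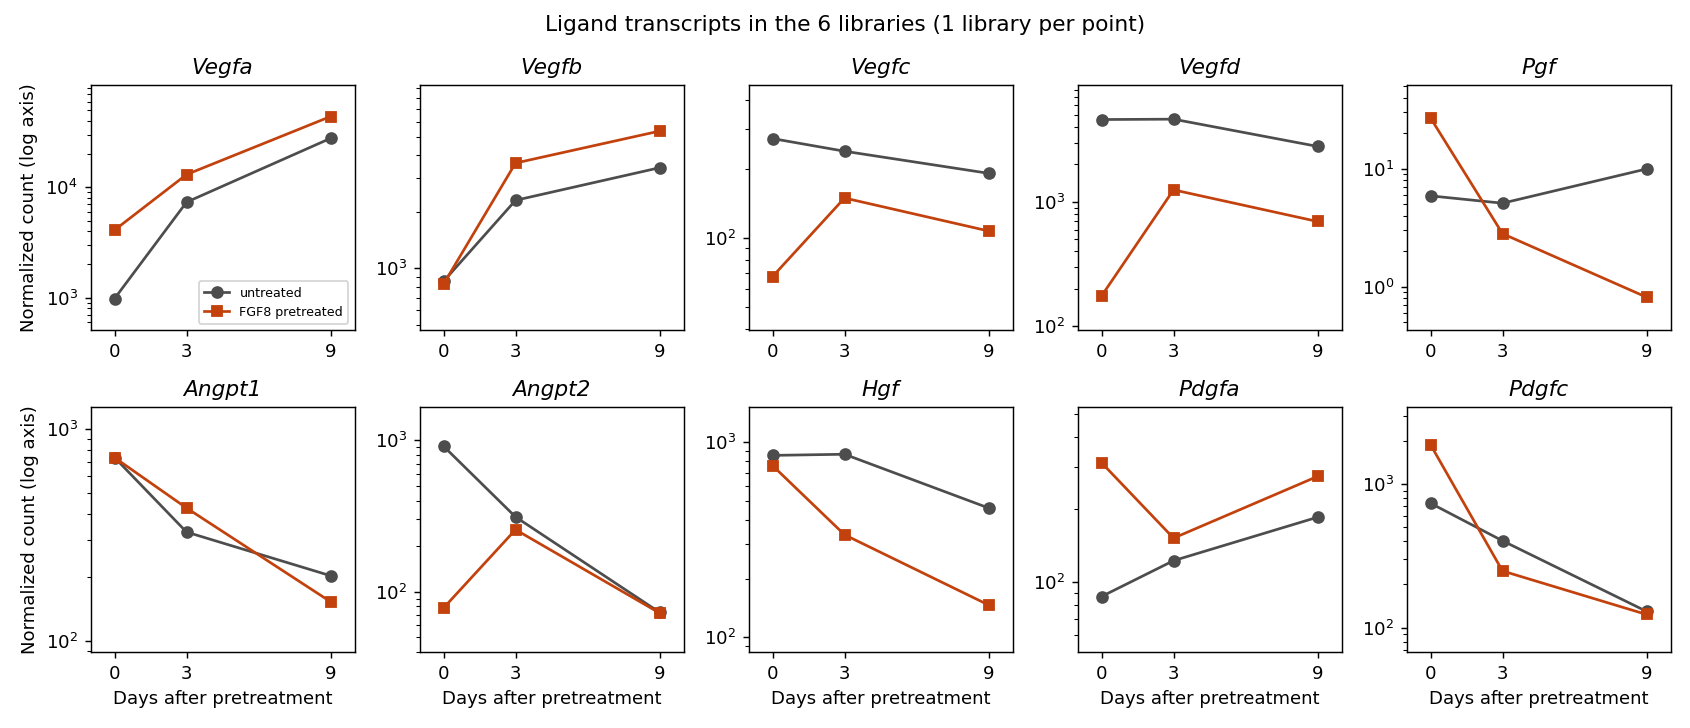
Normalized count (log axis, own scale in each panel) of the 10 ligands against days after pretreatment, with grey circles for the untreated and orange squares for the FGF8 libraries, 1 library per point. Vegfa climbs from 978.3 to 44032 normalized counts with FGF8 above untreated at each day, while Vegfd and Vegfc lie below untreated at each day.

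The 2 angiopoietins differed in their response. Angpt2 (chr8:18739202-18791603, minus strand) was 11.7-fold lower in the FGF8 library of day 0, with 913.6 normalized counts untreated against 78.1 (log2 fold change -3.53, interval -3.95 to -3.17). At day 3 the libraries had 311.8 and 256.9 normalized counts (-0.28, interval -0.52 to -0.04), and at day 9 73.1 and 72.4 (-0.01, interval -0.44 to 0.41). The large difference of day 0 was thus not seen at the later days. Angpt2 lies within Mcph1 on the opposite strand and shares 3387 bp of exons with it. The strand setting of the counting is not given in the sources used here, so reads of both genes may be mixed. Mcph1 had 819.6 and 1234 normalized counts at day 0, the opposite direction to Angpt2, and its part in the Angpt2 values was not tested. Other members share exons with genes that are not among the counted symbols. On the opposite strand these are 2552 bp for Pdgfa (6330403L08Rik), 815 bp for Angpt1 and 668 bp for Pdgfc, with shorter overlaps for Vegfa, Vegfc and Hgf. Hgf also shares 484 bp with a gene on its own strand. The part of these genes was not tested.

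Angpt1 (chr15:42288058-42540417, minus strand) was level at day 0, with 734.4 normalized counts untreated and 733.6 after FGF8 (log2 interval -0.18 to 0.17). At day 3 it had 327.1 and 424.7, a log2 fold change of 0.38 (interval 0.16 to 0.59). At day 9 it had 203.7 and 153.6, a log2 fold change of -0.40 (interval -0.68 to -0.14). All 3 differences were below 2-fold, and in both treatments the level was lower on each later day.

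Hgf, a mitogen for epithelium and endothelium (chr5:16758041-16828178, plus strand), differed little at the end of the pretreatment and more afterwards. Its level was 857.8 and 760.5 normalized counts at day 0 (log2 fold change -0.17, interval -0.34 to -0.01), 869.3 and 335.5 at day 3 (-1.37, interval -1.55 to -1.20), and 460.7 and 146.3 at day 9 (-1.65, interval -1.90 to -1.41). This was 2.59-fold and 3.15-fold lower at the 2 later days. Hgf was the 1 member past 2-fold at both later days that was within 2-fold at day 0.

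The PDGF ligands Pdgfa and Pdgfc were higher with FGF8 at the end of the pretreatment. Pdgfa (chr5:138961758-138983435, minus strand) had 86.7 normalized counts untreated against 312.4 with FGF8 at day 0, which is 3.60-fold (log2 fold change 1.84, interval 1.43 to 2.29). At day 3 it had 122.2 and 151.6 (0.31, interval -0.04 to 0.67), and at day 9 185.3 and 274.0 (0.56, interval 0.33 to 0.80). Pdgfa was higher after FGF8 on each day, with a counting interval that includes 0 at day 3. Pdgfc (chr3:80943668-81121473, plus strand) had 737.4 and 1887 normalized counts at day 0 (log2 fold change 1.35, interval 1.21 to 1.505), 403.5 and 248.5 at day 3 (-0.70, interval -0.92 to -0.48) and 129.9 and 123.6 at day 9 (-0.07, interval -0.39 to 0.25). Its direction at day 3 was opposite to that at day 0, and no difference beyond counting error was seen at day 9.

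On each day, 9 of the 10 members passed the minimum, a mean of 20 normalized counts over the pair. The members were chosen with earlier results of these data known, so the shares of all genes given beside them are no test. At day 0, 3 of them passed 2-fold as higher with FGF8 (Vegfa, Pdgfa and Pdgfc), where 7.27% of 12657 genes were, and 3 were at least 2-fold lower (Vegfd, Angpt2 and Vegfc), where 10.8% of all genes were. At day 3 none was 2-fold higher (3.8% of all genes) and 2 were 2-fold lower, Vegfd and Hgf (12.1% of all genes). At day 9 again none was higher (1.12% of all genes) and the same 2 were lower (8.74% of all genes). The median log2 fold change of the 9 members was -0.05, -0.28 and -0.07 in the order of the days, beside 0.05, 0.08 and 0.08 over all genes.

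**Figure D2:**
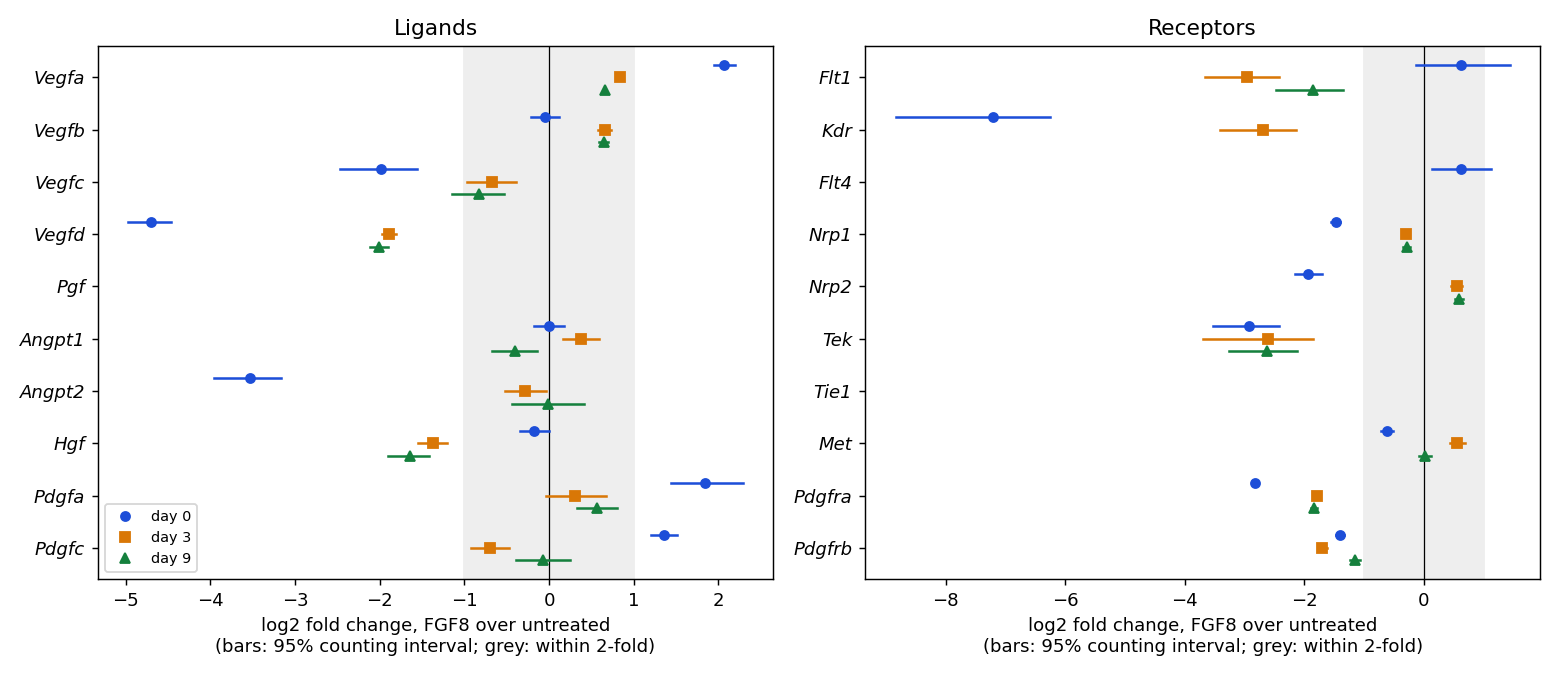
Log2 fold change of FGF8 over untreated for the 10 ligands (left) and 10 receptors (right) at day 0 (circles), day 3 (squares) and day 9 (triangles), with bars for the 95% counting interval. Genes with a mean under 20 normalized counts in a pair are not drawn, the grey band marks changes within 2-fold, and Vegfd, Tek, Pdgfra and Pdgfrb lie left of it on all 3 days.

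A common FGF8 effect across the days was fitted to all 6 libraries by edgeR's quasi-likelihood test, which took day as a block, so that the spread of the effect between days was the error. The labels do not say whether the libraries came from separate cultures, so these p-values measure only the spread between the libraries. Of the 9 members tested, 0 passed an adjusted p of 0.05, at which 185 of 14569 genes (1.27%) passed, 0.0206% as higher and 1.25% as lower. At an unadjusted p under 0.05 there were 4, Vegfa, Vegfc, Vegfd and Hgf, where 23.3% of all genes were. DESeq2's Wald test on the same design called the same 4 members, and 1680 of 13721 genes (12.2%). Without day 3, without day 9 or without the day block, edgeR called 0 of all genes. For Vegfd the shared log2 fold change was -2.80 ± 0.64 (SE, lower in 3 of 3 pairs, edgeR adjusted p = 0.111, and between 5.1e-06 and 1.00 over all fits). For Vegfa it was 1.15 ± 0.33 (higher in 3 of 3 pairs, edgeR adjusted p = 0.148, and 0.00565 to 1.00 over all fits).

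For Vegfc the shared log2 fold change was -1.17 ± 0.34 (SE, lower in 3 of 3 pairs, edgeR adjusted p = 0.152, and 0.0346 to 1.00 over all fits), and for Hgf -1.09 ± 0.33 (lower in 3 of 3 pairs, edgeR adjusted p = 0.155, and 0.00216 to 1.00 over all fits). Without the 2 libraries of day 0, edgeR called 3 members and 2230 of 14367 genes (15.5%). The members were Vegfd, with a log2 fold change of -1.97 and an adjusted p of 0.000728, Hgf with -1.54 and 0.00216, and Vegfb with 0.62 and 0.0269. Vegfa had an adjusted p of 0.0768 in that fit. The other members did not pass in either fit, among them Pdgfa at 0.87 ± 0.37 (SE, higher in 3 of 3 pairs, edgeR adjusted p = 0.244) and Angpt2 at -1.20 ± 0.80 (lower in 3 of 3 pairs, edgeR adjusted p = 0.407).

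Over time, Vegfa and Vegfb were higher and Angpt1 and Pdgfc lower on day 3 than on day 0. With treatment as a block, edgeR called these 4 of 9 members, where 46.0% of all genes were called, 26.2% as higher and 19.8% as lower. The log2 fold change was 2.30 ± 0.42 for Vegfa (SE, adjusted p = 0.0130), 1.83 ± 0.24 for Vegfb (adjusted p = 0.00621), -0.90 ± 0.25 for Angpt1 (adjusted p = 0.0368) and -1.88 ± 0.53 for Pdgfc (adjusted p = 0.0403), each in the same direction in 2 of 2 treatments. These calls rest on few libraries. Without the untreated library of day 0 all 10 members and 55.1% of 15353 genes passed, and Angpt2 turned from a log2 change of -0.24 to 1.84. Without the FGF8 library of day 0 Angpt2 passed at -1.55. Without the FGF8 library of day 3, where 8.19% of genes passed, none of the 4 did, with adjusted p-values of 0.0733, 0.0535, 0.0993 and 0.204 in the same order. Without the untreated library of day 3, which leaves 1 library of that day, Vegfa and Angpt1 did not pass. In this fit and in those without a library of day 9, a smaller share of all genes passed than with all 6 libraries. Without either library of day 9, Angpt1 and Pdgfc did not pass, at 0.0515 and 0.0599 without the untreated and 0.0511 and 0.0605 without the FGF8 library.

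The steps within each treatment show how the courses differed. In untreated cells from day 0 to day 3, Vegfa was 7.51-fold and Vegfb 2.69-fold higher (2 of 9 members, against 19.5% of all genes), and Angpt2 2.93-fold and Angpt1 2.25-fold lower (2 of 9, against 15.5%). In FGF8-pretreated cells 5 of 9 members were at least 2-fold higher (24.1% of all genes), Vegfd 7.13-fold, Vegfb 4.38-fold, Angpt2 3.29-fold, Vegfa 3.19-fold and Vegfc 2.20-fold. Another 3 were lower (22.0% of all genes), Pdgfc 7.59-fold, Hgf 2.27-fold and Pdgfa 2.06-fold. Vegfd and Hgf were within 2-fold over the same step in untreated cells, with log2 changes of 0.01 (interval -0.06 to 0.08) and 0.02 (-0.14 to 0.18).

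From day 3 to day 9, Vegfa was 3.80-fold higher in untreated and 3.36-fold higher in FGF8-pretreated cells, and no other member was 2-fold higher in either, where 8.77% and 8.16% of all genes were. Angpt2 (4.26-fold) and Pdgfc (3.11-fold) were lower in untreated cells, where 4.42% of all genes were. In FGF8-pretreated cells Angpt2 (3.55-fold), Angpt1 (2.76-fold), Hgf (2.29-fold) and Pdgfc (2.01-fold) were lower, where 5.4% of all genes were. In edgeR's test over both treatments 0 of 9 members and 10 of 14569 genes (0.0686%; 0.0618% as higher and 0.00686% as lower) passed, with 21.3% of genes at an unadjusted p under 0.05. Vegfa had a log2 change of 1.82 ± 0.40 (SE, higher in 2 of 2 treatments, edgeR adjusted p = 0.114), and DESeq2 called 2 members, Vegfa and Angpt1, and 9.32% of genes. When either library of day 0 was left out of the edgeR fit, 7 members passed, where 21.1% of genes did without the untreated and 20.6% without the FGF8 library. With both left out 21.2% of genes passed, and the 7 members were Vegfa (1.81, adjusted p = 0.00247) and Vegfb (0.54, adjusted p = 0.0345) as higher, and Vegfd, Angpt1, Angpt2, Hgf and Pdgfc as lower.

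Between genes, levels were compared as normalized counts per kilobase of merged exons. In the untreated library of day 0 Vegfd ranked first, at 1611 per kilobase and 59.8% of the sum over the 10 ligands, before Vegfb (9.73%) and Vegfa (8.45%), whose counting intervals overlapped. In the FGF8 library of day 0 Vegfa ranked first with 954.1 per kilobase (52.4%), followed by Pdgfc (15.5%) and Vegfb (13.9%), whose intervals also overlapped, and Vegfd made up 3.38%. At day 3 Vegfa (1709 per kilobase, 38.9%) and Vegfd (1622, 36.9%) had overlapping intervals in the untreated library, while the FGF8 library had 62.8% Vegfa, 22.9% Vegfb and 9.04% Vegfd. At day 9 Vegfa made up 74.4% of the untreated and 83.4% of the FGF8 sum, with Vegfb at 12.03% and 13.4% and Vegfd at 11.2% and 1.99%. Below the first 3, at the later days, each ligand made up less than 2% of the sum, and many neighbours in the order had overlapping intervals. Pgf ranked last in all 6 libraries. With the longest annotated transcript as the length, 257 of the 270 pairwise orders over the 6 libraries were unchanged.

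**Figure D3:**
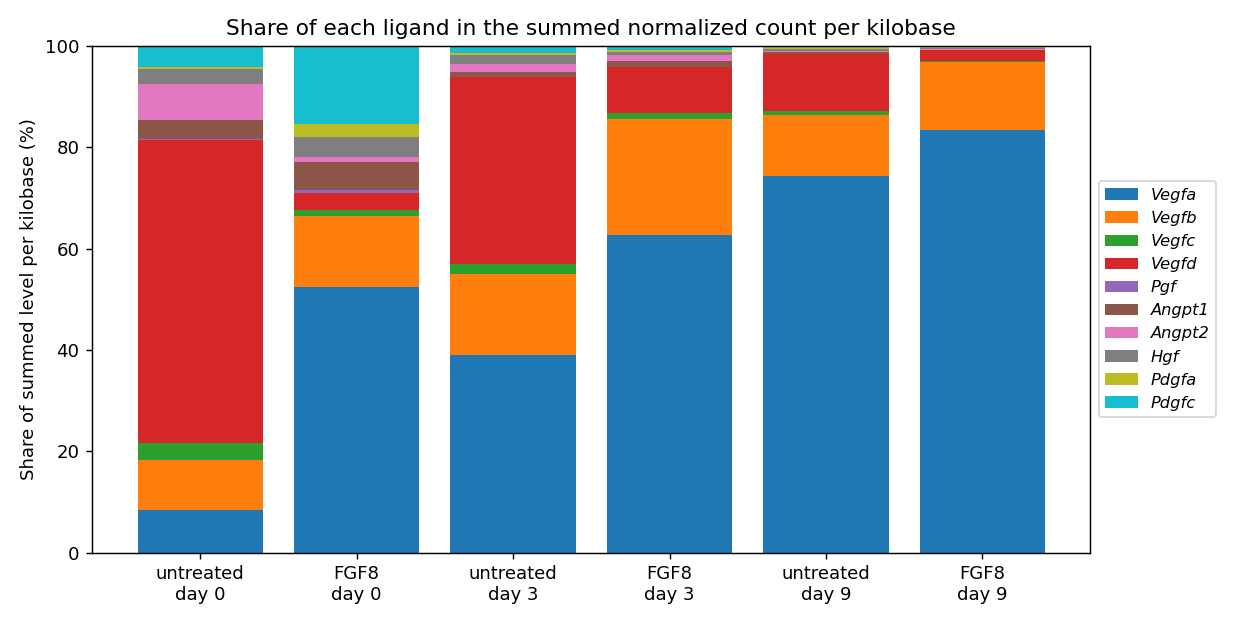
Share (%) of each ligand in the summed normalized count per kilobase of the 10 ligands, 1 stacked bar per library, to 100%. Vegfd takes 59.8% of the untreated and 3.38% of the FGF8 bar of day 0, and Vegfa takes 74.4% and 83.4% at day 9.

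The receptors of these ligands were lower or within 2-fold after FGF8. Of 10 receptor genes, 9, 8 and 7 passed the minimum at days 0, 3 and 9, and 6, 5 and 4 of them were at least 2-fold lower, beside 10.8%, 12.1% and 8.74% of all genes, with none 2-fold higher. In the shared edgeR test 3 of 9 passed as lower, beside 1.25% of all genes: Tek (-2.80 ± 0.28 SE, adjusted p = 0.0429), Pdgfrb (-1.44 ± 0.17, adjusted p = 0.0464) and Pdgfra (-2.17 ± 0.28, adjusted p = 0.0499), each lower in 3 of 3 pairs. Like all calls of this test, these were lost without day 3 or day 9. Kdr, the receptor for VEGF-A, had 1288 normalized counts untreated against 7.7 with FGF8 at day 0, and 132.4 against 19.7 at day 3. Its shared log2 fold change was -4.82 ± 1.03 with an edgeR adjusted p of 0.102. Pdgfra, the receptor of the 2 PDGF ligands that were higher at day 0, went from 68261 to 9680 normalized counts in the same pair. Pdgfra is also 1 of the 5 preadipocyte markers, of which 3 passed 2-fold as lower at day 0 and all 5 at days 3 and 9, while Thy1 had 2773 normalized counts untreated against 4427 with FGF8 at day 0. The other 4 markers summed to 55912, 13399 and 14705 normalized counts untreated and to 20699, 3120 and 2017 with FGF8, and their part in the receptor values was not tested. Met, the HGF receptor, was within 2-fold on all 3 days.

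Of 3 further ligands of these families, Pdgfd had 289.4, 254.5 and 443.6 normalized counts in the untreated libraries of days 0, 3 and 9 and 93.5, 136.2 and 182.9 in the FGF8 libraries. Its shared log2 fold change was -1.29 ± 0.24 (SE, lower in 3 of 3 pairs, edgeR adjusted p = 0.0829). Angpt4 had 109 counts untreated against 8 with FGF8 at day 9, and Pdgfb at most 16 counts in any library. None of the 3 passed the shared test. Of 7 genes for proteases that process these ligands and their inhibitors, 6 were tested and none passed. At day 0, 1 of the 4 past the minimum was 2-fold higher and 1 lower, beside 7.27% and 10.8% of all genes. At days 3 and 9, 2 of 3 were lower (12.1% and 8.74% of all genes) and 0 higher (3.8% and 1.12%). The higher gene of day 0 was Spint1, with 51.4 normalized counts untreated and 256.0 with FGF8. Plat, which codes for tissue plasminogen activator and can cleave PDGF-C, had 8428 and 3528 normalized counts at day 0 and 1174 and 143.9 at day 9 (edgeR adjusted p = 0.0706). Of 8 secreted inhibitors or matrix modulators of angiogenesis, Thbs1 (-1.95 ± 0.16, adjusted p = 0.0429) and Thbs2 (-1.99 ± 0.23, adjusted p = 0.0464), the thrombospondins, passed as lower in 3 of 3 pairs by edgeR. In this test 1.25% of all genes passed as lower, and none without day 3 or day 9. Adamts1 had a larger change (-2.15 ± 0.73, edgeR adjusted p = 0.179). At days 0, 3 and 9, 3, 6 and 4 of the 8 were 2-fold lower, beside 10.8%, 12.1% and 8.74% of all genes, and none 2-fold higher.

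Of 8 hypoxia-responsive genes, of which 7 were analysed here, 5 passed 2-fold as higher with FGF8 at day 0, 4 at day 3 and none at day 9, beside 7.27%, 3.8% and 1.12% of all genes. Egln3, an oxygen sensor that HIF itself induces, held 67.6, 659.3 and 12357 normalized counts in the untreated and 473.7, 3206 and 19363 in the FGF8 libraries of days 0, 3 and 9. Bnip3, a mitophagy receptor, held 749.1, 2582 and 19878 and 1989, 9767 and 29786 in the same order. Both genes, like Vegfa, were above the untreated library on each day, as were Ankrd37, Pdk1 and Slc2a1. The shared log2 fold changes of these 3 were 1.52, 1.31 and 0.70, beside 1.28 for Bnip3. Ndrg1 was above the untreated library at day 9 and below it at days 0 and 3. Adm, the vasodilator adrenomedullin, was at least 2-fold lower with FGF8 on each day. It was the 1 gene of the list that passed the shared test (-1.98 ± 0.24 SE, edgeR adjusted p = 0.0464). Of 5 regulators known for Vegfa, none passed the shared FGF8 test, which 0.0206% of all genes passed as higher and 1.25% as lower. By the 2-fold rule, 1 was lower at day 0 (10.8% of all genes) and 1 higher at day 3 (3.8%), with none past it at day 9. Both were Ppargc1a, with 48.5 normalized counts untreated and 15.4 with FGF8 at day 0, and 950.7 and 2130 at day 3. Hif1a had 8434 and 14335 at day 0, within 2-fold. Epas1 (HIF-2α), Ppargc1a and Esrra rose and Hif1a fell between day 0 and day 3 by edgeR, with log2 changes of 5.68, 5.58, 4.28 and -1.28 (adjusted p = 0.00192, 0.00558, 0.00305 and 0.0321), where 26.2% of all genes passed as higher and 19.8% as lower.

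**Figure D4:**
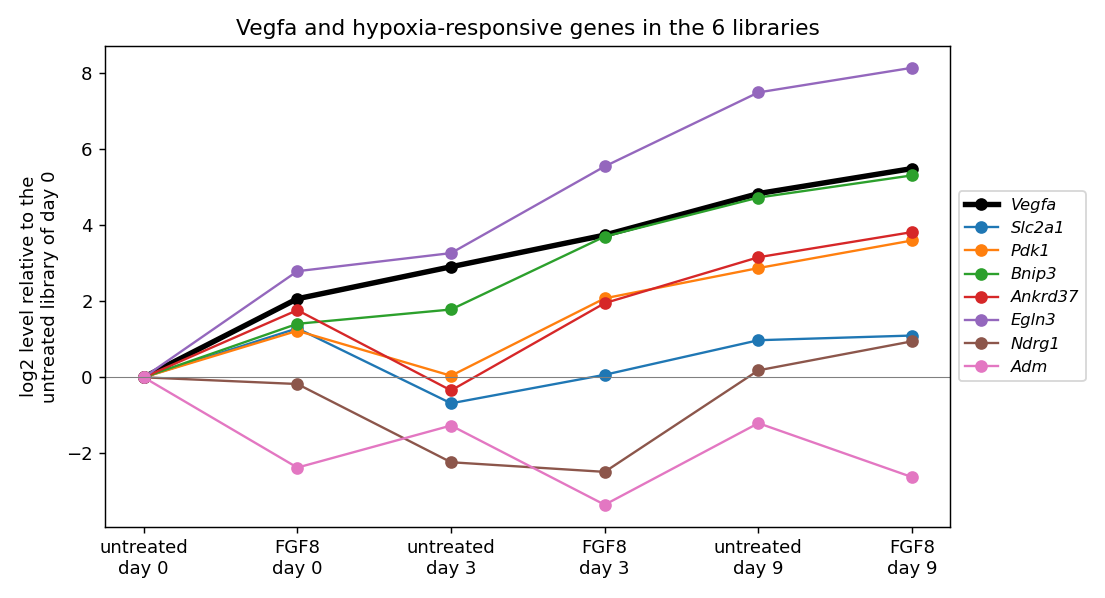
Log2 level of Vegfa (thick black line) and 7 hypoxia-responsive genes relative to the untreated library of day 0, with 1 point per library and lines only to guide the eye. Vegfa, Egln3 and Bnip3 climb from library to library, while Slc2a1, Pdk1, Ankrd37 and Ndrg1 do not climb throughout. Adm lies lower in each FGF8 library than in the untreated library of its day.

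Among the 11381 genes whose mean reached 100 normalized counts, those whose centred log2 profile over the 6 libraries lay nearest to Vegfa by Euclidean distance were Acot2 (0.634), Dhrs9 (0.671) and Pgk1 (0.787). For Vegfd they were Sp110 (0.506), Cemip (0.626) and Fst (0.628), and for Vegfc Zfp36l1 (0.141), Tapbp (0.282) and Oas1b (0.308). Hgf had Ttc39c (0.394), Adcyap1r1 (0.423) and Tgfb3 (0.438) as its nearest, and Pdgfc had Efnb2 (0.491), Elovl4 (0.817) and Rps6ka2 (0.850). Vegfb was nearest to Rmi1 (0.190), Angpt1 to 1110038B12Rik (0.207), Pdgfa to Atf4 (0.307) and Angpt2 to Pla2g4c (1.22). With 6 libraries of unequal depth that split by day, closeness of this kind describes these libraries only.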

How the data were processed

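The authors sequenced bulk RNA (stranded Illumina mRNA kit), used TrimGalore for trimming, HISAT2 for alignment to GRCm39 and featureCounts for counts per gene, and the deposited values are raw counts. Versions, annotation and strand setting are not given in the sources used here. Groups came from the sample titles. Counts were divided by DESeq2 (1.42.0) size factors over 6 libraries. Genes whose mean over a pair reached 20 normalized counts were called at 2-fold (pseudocount 1), with 95% Clopper-Pearson counting intervals and no test. Effects shared by days or treatments were tested with edgeR (4.0.16, quasi-likelihood, TMM, filterByExpr, 2 residual degrees of freedom, Benjamini-Hochberg over all genes). Its F statistic gave the standard errors. The test was also run on simulated data with known changes and a small fixed spread. Such data cannot show how the test behaves on these libraries. Gene positions and lengths came from GENCODE M39, which held 23897 of the 26264 symbols. R 4.3.3, Python 3.11.15, scipy 1.17.1, pandas 2.3.3 and matplotlib 3.10.9 were used. The members and lists were chosen with earlier results of these data known. All 10 members were named, and of most lists at most 4 genes past the 2-fold rule or the test, not always those with the largest change. Every hypoxia-responsive gene analysed was named. Met and Pdgfb were named outside this rule, and Xist, Ifi202b, Gbp2b and Ddx3y once their values had been seen. For each member whose mean reached 100 normalized counts, up to 3 nearest genes were named. Alternatives were other scalings, pseudocounts of 0.5 and 5, other filters, DESeq2's Wald test, rules of 1.5-fold and 4-fold, fits without a block, and leaving out days or libraries. Depth was 16403254 to 38551551 counts per library.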

Additional observations from a re-analysis of the deposited data

Results flagged for a closer look

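The difference between FGF8-pretreated and untreated cells changed direction between days, beyond the counting intervals, for 2 ligands. For Angpt1 the log2 fold change was 0.38 at day 3 and -0.40 at day 9. For Pdgfc it was 1.35 at day 0 and -0.70 at day 3. With 1 library per condition the difference between the days was not tested. The Pdgfc comparison also sets day 0, where Xist, Ifi202b and Gbp2b were high, beside a later day.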

How the results depend on the processing

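No alternative scaling, pseudocount or filter moved a count of members past 2-fold by over 1.5 times. With a 4-fold rule, 1 member was higher and 3 were past the rule in all at day 0, 0 at day 3 (0 lower) and 1 at day 9 (1 lower). With a 1.5-fold rule, 2 were higher and 4 lower at day 3 (6 in all), and 2 were higher at day 9 (5 in all). The shares of all genes past the 4-fold and 1.5-fold rules were not computed, so these counts cannot be set against them. For the shared FGF8 effect, DESeq2 called 4 members and 1680 genes against 0 and 185 in edgeR; edgeR called 110 genes with DESeq2 size factors, 419 with no filter and 0 without the day as a replicate block, and 0 to 3 members and 0 to 2230 genes when 1 day was left out. For day 3 against day 0 (4 members, 6707 genes), leaving the treatment block out gave 2 members and 4436 genes, and leaving 1 library out 0 to 10 members and 1214 to 8454 genes. Without the untreated library of day 0, Angpt2 turned from a log2 change of -0.24 to 1.84, and without the FGF8 library of that day it was -1.55. For day 9 against day 3 (0 members, 10 genes), DESeq2 called 2 members and 1332 genes, total counts gave 20 genes, no filter 268, no treatment block 3, and leaving libraries out 0 to 7 members and 0 to 3238 genes, with 7 members without either library of day 0. Leaving out both libraries of day 0 (7 members, 3043 genes) was chosen after seeing the data. Where a fit leaves 1 library in an arm, it is assumed to vary like the others. The causes were not tested. No paired analysis beyond these blocks was possible because there is 1 library per condition. Among single members, other scalings moved 3 fold changes at day 3 and 4 at day 9 beyond their counting intervals, all of Vegfa, Vegfb or Vegfd and with no change of direction. Depth limits Pgf, which had 1 to 21 counts.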
